A study of Caenorhabditis elegans with 2 samples.

Results

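The 7 genes described here encode the Sec61 protein translocation channel of the endoplasmic reticulum (ER) and the translocon-associated protein (TRAP) complex of Caenorhabditis elegans: sec-61.A, sec-61.B, sec-61.G, trap-1, trap-2, trap-3 and trap-4. They are a complete set of subunits, 7 of 19973 nuclear protein-coding genes, and were chosen by the promoter peaks of sec-61.G, sec-61.B and trap-3 already seen in these data. Because peak positions and signals led to the choice, everything below is a description of these genes, with no test.

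Secreted and membrane proteins enter the ER through the Sec61 channel while ribosomes are still making them. The α subunit forms the pore, the small β and γ subunits sit beside it in the membrane, and TRAP, with α, β, γ and δ subunits, binds next to the channel and helps many proteins to pass. Cells adjust the supply of this machinery to the load of secreted protein, which in an adult hermaphrodite includes yolk made in the intestine and collagens of the cuticle.

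The measurements were chromatin immunoprecipitation followed by sequencing (ChIP-seq) of ZNF-207, a zinc finger protein encoded by B0035.1 (znf-207). The animals were whole hermaphrodites of strain xtl1186, which carries ZNF-207 fused at its C terminus to GFP and FLAG, and they were collected as young adults 50 hours after synchronization as starved L1 larvae. Chromatin was sonicated and precipitated with an anti-GFP antibody in 2 biological replicates that form 1 group. Every animal carried the transgene, no untagged or input sample was analysed here, and whole animals mix all cell types. Each replicate has a list of peaks, and there is a list of both replicates pooled and a thresholded list of 750 peaks. The lists hold no read counts, so sequencing depth is unknown, and n is 2 replicates throughout.

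A summit is the position of highest signal in a peak. Signal is the authors' own value for each peak. Its scale belongs to 1 list, so ranks, with 1 for the strongest peak of a list, are used between lists. In the thresholded list the signal ran from 88.6 to 6441 with a median of 114. There are 30000 pooled peaks, 30000 in replicate 1 and 25036 in replicate 2, and these long lists include weak peaks and background. The promoter window of a gene reached 500 bp upstream and 200 bp downstream, counted from its outermost protein-coding start. An end window, defined after the peaks had been seen, mirrored it at the other end, from 200 bp before to 500 bp past the annotated end of the gene. All coordinates are in ce11, the WBcel235 assembly.

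All 7 genes had a thresholded summit in a window at the start or at the end of the gene, and none had a thresholded summit inside the gene. At the start there were summits for 4 genes, namely sec-61.B, sec-61.G, trap-2 and trap-3, beside 1.64% of all nuclear protein-coding genes. At the end there were summits for 5 genes, namely sec-61.A, sec-61.B, trap-1, trap-3 and trap-4, beside 1.53% of all genes. A thresholded summit at the start or the end was found at 3.05% of all genes. That all 7 genes were counted rests on the end window, which was defined after these peaks had been seen. Without it sec-61.A, trap-1 and trap-4 would not count, and the summits past trap-1 and trap-4 also lay in promoter windows of other genes. Both ends of sec-61.B and of trap-3 had a thresholded summit, as did 24 genes or 0.120% of all. Since sec-61.B and trap-3 share their promoter summit, the 7 genes held 8 distinct thresholded summits. Counted inside any protein-coding gene, rather than the gene of the set, were 265 of the 731 thresholded nuclear summits (36.3%). By that wider count the summit past trap-4 was inside its neighbour Y56A3A.22. The 8 summits were also picked by windows that lie mostly outside the gene, so these values are not a like comparison.

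**Figure D1:**
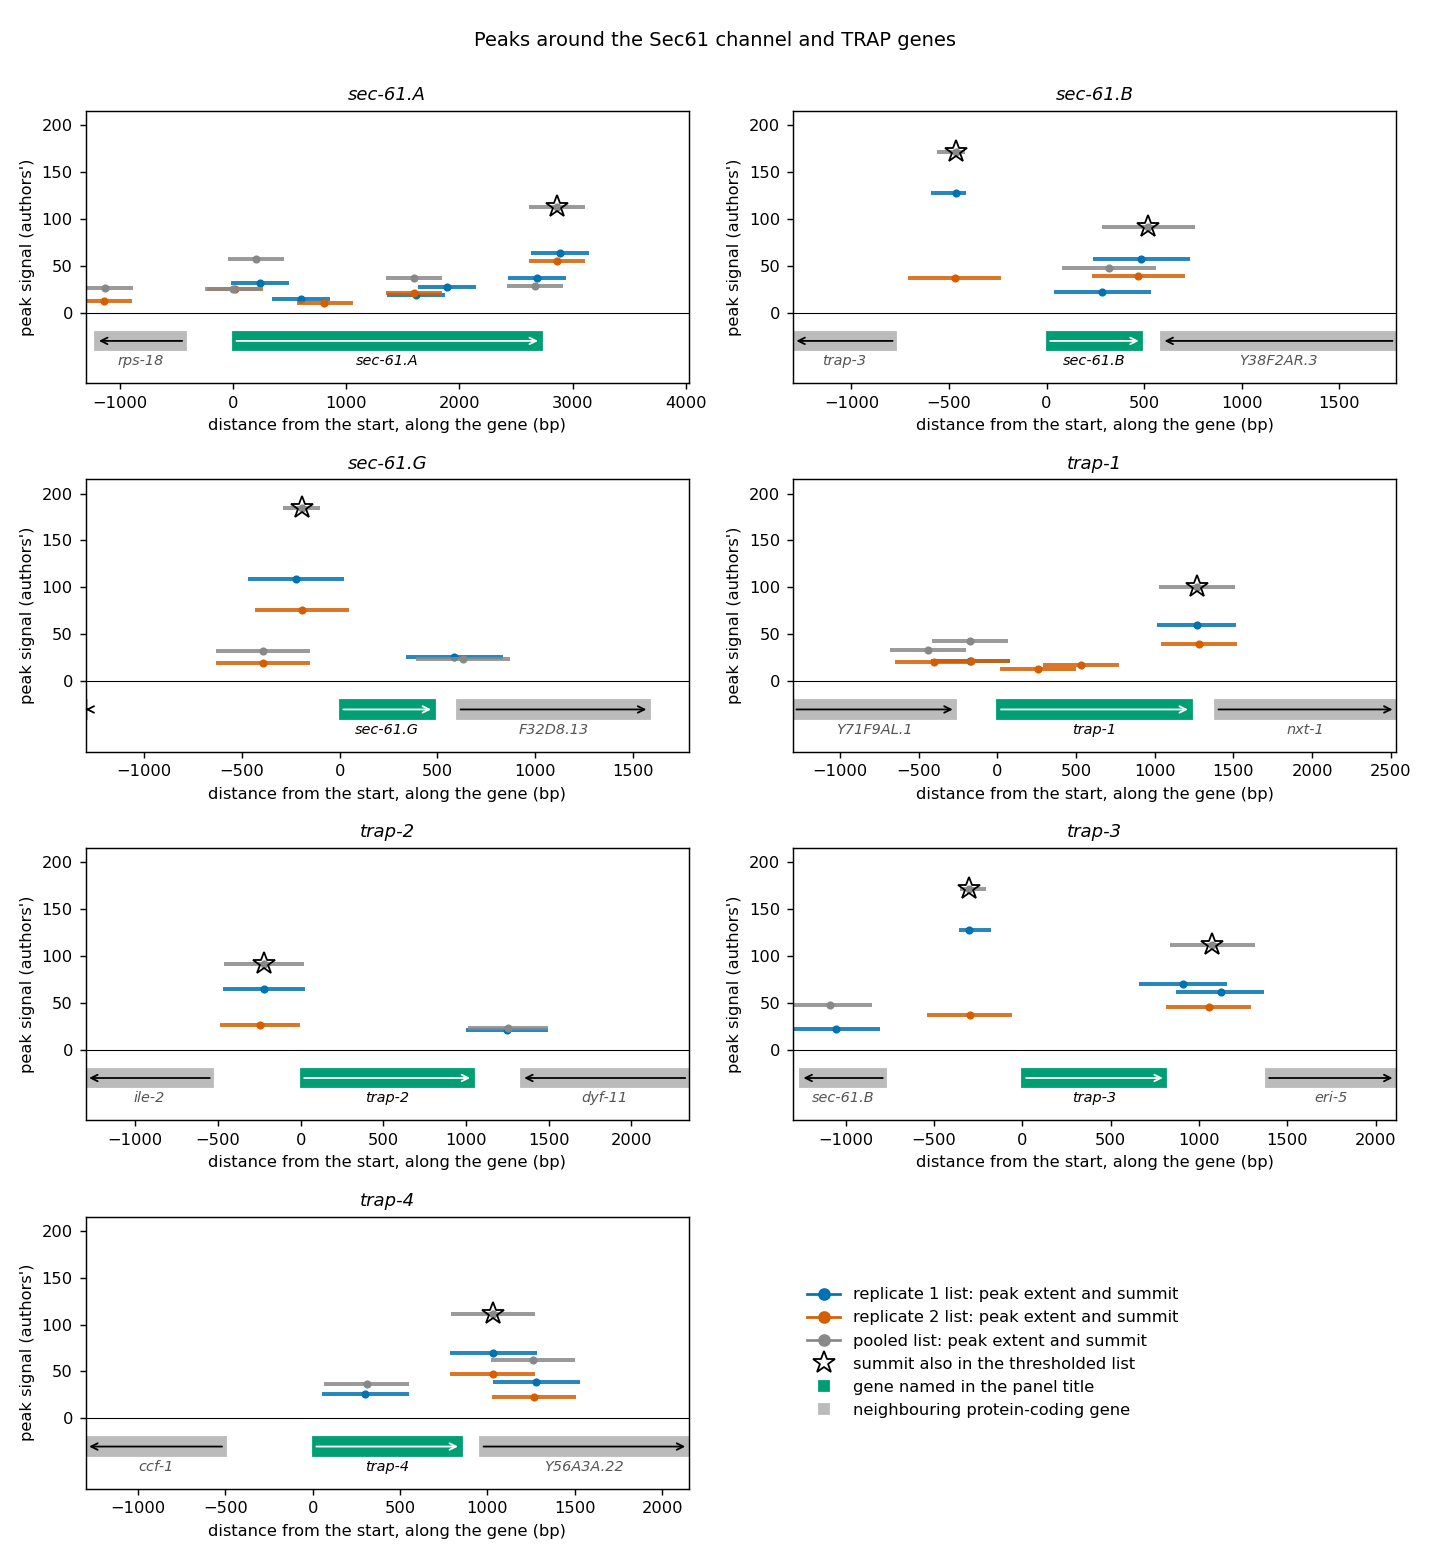
Maps of the 7 genes, each drawn from left to right along its own direction of transcription, with the distance from the gene start in bp on the horizontal axis and the authors' peak signal on the vertical axis. Bars give the extent of a peak and dots its summit in the replicate 1, replicate 2 and pooled lists, stars mark summits that are also thresholded, and boxes show the gene (green) and neighbouring protein-coding genes (grey). The 8 starred summits, of which the summit shared by sec-61.B and trap-3 is drawn in both panels, lie before the start or past the end of the green boxes, and signals are on a scale of their own in each list.

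The sequences around 7 of the 8 summits are shown, without that past trap-1, because the summits at these genes differ widely in base composition and no motif searched for was at more than 1 of them. Each is the forward strand of WBcel235 from the RefSeq genome, from 50 bases before to 50 bases after the summit, and capitals mark a match to a motif searched for.
sec-61.B and trap-3, shared promoter summit, chrIV:2389091-2389191: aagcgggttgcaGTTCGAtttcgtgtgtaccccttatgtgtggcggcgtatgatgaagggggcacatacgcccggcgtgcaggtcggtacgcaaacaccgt
sec-61.G, promoter summit, chrV:10897286-10897386: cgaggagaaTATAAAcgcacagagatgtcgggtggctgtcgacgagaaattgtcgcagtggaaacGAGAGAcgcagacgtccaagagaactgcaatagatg
trap-2, promoter summit, chrX:768238-768338: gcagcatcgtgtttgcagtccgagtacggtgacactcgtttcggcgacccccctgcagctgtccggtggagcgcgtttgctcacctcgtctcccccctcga
sec-61.A, summit past the end, chrIV:14822351-14822451: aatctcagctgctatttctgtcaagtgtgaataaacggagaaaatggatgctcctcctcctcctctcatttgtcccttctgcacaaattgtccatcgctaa
sec-61.B, summit past the end, shortened to the stretch between genes, chrIV:2388103-2388184: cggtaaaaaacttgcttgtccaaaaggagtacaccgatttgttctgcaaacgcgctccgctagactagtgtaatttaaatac
trap-3, summit past the end, chrIV:2390470-2390570: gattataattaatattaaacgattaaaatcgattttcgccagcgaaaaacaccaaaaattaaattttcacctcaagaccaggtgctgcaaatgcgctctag
trap-4, summit past the end, chrIII:11921715-11921815: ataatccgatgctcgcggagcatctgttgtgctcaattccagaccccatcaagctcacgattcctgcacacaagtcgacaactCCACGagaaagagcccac

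Base composition differed widely between the summits. Over the full 50 bases on each side, the GC content was 64.4% at trap-2, 58.4% at the shared summit of sec-61.B and trap-3 and 50.5% at sec-61.G. The summits past the gene ends had 52.5% at trap-4, 43.6% at sec-61.A, 34.7% at sec-61.B, 33.7% at trap-3 and 22.8% at trap-1. Over all 731 thresholded nuclear summits the median was 47.5%, with an interquartile range of 40.6 to 53.5%, and the 301 bases around the starts of all genes had a median of 34.2%. All 3 promoter summits thus lay above the median of thresholded summits, and among the 5 end summits only that of trap-4 did.

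Short motifs were looked up on both strands within 50 bases of each of the 8 summits. The core of the unfolded protein response element, TGACGTG, was at none of them, beside 0.958% of all thresholded nuclear summits and 2.94% of the 301-base promoters of all genes. Of the parts of the ER stress element, CCAAT was at none (17.1% of summits, 45.7% of promoters) and CCACG was at that of trap-4 only (17.0% of summits, 21.8% of promoters). TATAAA and GAGAGA were each found only at sec-61.G, beside 7.93% and 18.7% of all summits and 38.0% and 21.8% of all promoters. TTTCAG, the usual splice acceptor, and GCGCGC, which reads the same on both strands, were at none, beside 7.39% and 7.52% of all summits and 51.7% and 3.57% of all promoters. GTTCGA, a core of the internal B box of tRNA genes that was added after the sequences had been seen, was at the shared summit only, beside 14.1% of all summits and 9.91% of all promoters. In the 301-base promoters of the 7 genes themselves, CCAAT occurred in the 3 sec-61 genes, CCACG in sec-61.B, TATAAA in sec-61.G, trap-1 and trap-3, TTTCAG in sec-61.A, sec-61.G, trap-2 and trap-3, GAGAGA in sec-61.A, sec-61.G, trap-3 and trap-4, and GTTCGA in sec-61.G. A match says only that the letters are present in the window.

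The channel genes are described first. The gene sec-61.A (WBGene00013311, chrIV:14822540-14825264, reverse strand), which encodes the pore-forming α subunit, was the exception among them, with its thresholded peak at the end alone. That peak covered chrIV:14822171-14822630 with its summit at 14822401, 139 bp past the end of the gene, and had a signal of 112 and rank 399 in the pooled list. The same peak had a signal of 63.4 and rank 620 in replicate 1, where its summit lay 23 bp away, and a signal of 55.3 and rank 217 in replicate 2, with a summit 4 bp away. The next protein-coding gene past the end, Y57G11C.46, a serpentine receptor gene, lies 6151 bp away, so this summit was in no window of any other protein-coding gene.

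The start of sec-61.A carried weaker peaks that did not pass the threshold. The pooled list held a summit exactly at the start (0 bp, signal 25.1, rank 15423) and a stronger peak 204 bp downstream, just outside the window (signal 56.9, rank 2157). In replicate 1 the nearest summit lay 239 bp downstream at rank 3546 and none lay in the window. In replicate 2 a summit lay 18 bp downstream with a signal of 25.6 and rank 2378. The opposite start 415 bp away belongs to rps-18, which encodes a protein of the small ribosomal subunit. Inside sec-61.A, the longest of the 7 genes at 2725 bp, there were 4 pooled summits, 5 in replicate 1 and 3 in replicate 2, the strongest pooled being the peak 204 bp from the start.

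The β subunit gene, sec-61.B (WBGene00021427, chrIV:2388185-2388675, reverse strand), is short, at 491 bp, and had a thresholded summit on either side. It lies head to head with trap-3, with 770 bp between the starts of the 2 genes. Their shared promoter peak covered chrIV:2389102-2389227, and its summit at 2389141 lay 466 bp upstream of sec-61.B and 304 bp upstream of trap-3. It had a signal of 171 and rank 125 in the pooled list, a signal of 128 and rank 84 in replicate 1 and a signal of 36.8 and rank 829 in replicate 2. The summits of the replicates lay 1 and 5 bp from the pooled summit, so the place was the same while the rank was far lower in replicate 2. Its larger replicate rank was 9.87 times the smaller, where the median over 719 thresholded nuclear peaks found in both replicates was 1.86 and 97 of them (13.5%) had a ratio of 5 or more.

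This shared peak was also narrow. At 126 bp it was among the 52 thresholded nuclear peaks (7.11%) under 200 bp wide, whose median signal was 162 beside 112 for the others. The promoter peak of sec-61.G, at 168 bp, was among them too. In replicate 1 the shared peak was 160 bp wide, and in replicate 2 it had the usual width of that list, 460 bp. The summit lay inside the noncoding RNA gene Y38F2AR.17 (chrIV:2388951-2389244, forward strand), 190 bp from its start, and 44 bp upstream of the start of the opposite noncoding RNA gene Y38F2AR.16 (chrIV:2388949-2389097). No tRNA, snoRNA, snRNA, rRNA or microRNA gene was annotated closer than 9511 bp to it.

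The peak past the end of sec-61.B was among the weakest of the thresholded peaks. It covered chrIV:2387923-2388382, with a signal of 91.0 and rank 706 in the pooled list. In replicate 1 its signal was 57.5 and its rank 782, and in replicate 2 the values were 38.7 and 712. The pooled summit lay at 2388153, 32 bp past the end, in the 95 bp that separate the gene from the convergent gene Y38F2AR.3, which encodes a counterpart of the mitochondrial complex I assembly factor TIMMDC1. In the replicates the summits lay 4 and 20 bp before the end, inside the gene, so the position relative to the gene end is not resolved at this scale.

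The γ subunit gene, sec-61.G (WBGene00001303, chrV:10896658-10897143, reverse strand, 486 bp), had the strongest peak of the 7 genes in the pooled list, and the only promoter peak among them that stood among the 750 strongest of both replicates. The peak covered chrV:10897255-10897422 with its summit at 10897336, 193 bp upstream of the start. Its signal was 185 with rank 102 in the pooled list. In replicate 1 the signal was 109 with rank 135 and a summit 31 bp away, and in replicate 2 it was 76.2 with rank 103 and a summit 1 bp away. The nearest opposite start, that of F32D8.7, lies 1292 bp away, so this was the only thresholded promoter summit of the 4 genes that fell in the promoter window of 1 gene alone. Past the end of sec-61.G, toward F32D8.13, a phosphomevalonate kinase gene 114 bp away, the pooled list held only a weak summit at 147 bp (signal 23.3, rank 17764), replicate 1 held 1 nearer to the end (rank 5747) and replicate 2 held none.

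Among the TRAP genes, trap-1 (WBGene00022122, chrI:2928395-2929628, forward strand), which encodes the α subunit, had its thresholded peak past the end. The peak covered chrI:2929436-2929895 with a signal of 100.4 and rank 552 in the pooled list. In replicate 1 the signal was 60.0 and the rank 702, and in replicate 2 they were 39.7 and 652. These 2 replicate ranks were within 1.08 times of each other, the closest of the 8 peaks. The summit at 2929666 lay 38 bp past the end of trap-1 and 111 bp upstream of nxt-1. That gene, on the same strand, encodes an NTF2-related nuclear export protein, and the summit lay in its promoter window as well.

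At the start of trap-1 the pooled summits 175 and 442 bp upstream had signals of 43.3 and 32.9 and ranks 4276 and 8585, below the threshold. A summit 172 bp upstream in replicate 1 ranked 9057, and 1 at 167 bp upstream in replicate 2 ranked 3852. The position was alike in all 3 lists, and the peak was weak in each.

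The β subunit gene, trap-2 (WBGene00020216, chrX:767023-768069, reverse strand), is the only X-linked gene of the set and had a promoter peak just inside the threshold. The peak covered chrX:768058-768517 with its summit at 768288, 219 bp upstream of trap-2. Its signal was 91.6 and its rank 694 in the pooled list. In replicate 1 the signal was 65.0 and the rank 568, while in replicate 2 they were 26.0 and 2281, with a summit 28 bp away. As at sec-61.B and trap-3, replicate 1 ranked the peak higher, here by 4.02 times. The same summit lay 308 bp upstream of ile-2, a gene for an L-type lectin-like protein of the secretory pathway that starts 527 bp away in the opposite direction. Past the end of trap-2, toward the convergent gene dyf-11, a pooled summit at 209 bp ranked 17818, the matching summit of replicate 1 ranked 9999, and replicate 2 had none.

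The γ subunit gene, trap-3 (WBGene00021420, chrIV:2389445-2390259, forward strand), had, besides the summit it shares with sec-61.B, a thresholded peak past its end. This covered chrIV:2390290-2390749 with its summit at 2390520, 261 bp past the end, and had a signal of 111 and rank 412 in the pooled list. The nearest summit in replicate 1 lay 46 bp away with a signal of 62.1 and rank 643, and in replicate 2 it lay 19 bp away with a signal of 45.6 and rank 425. Replicate 1 also held a second and stronger summit 94 bp past the end (signal 70.6, rank 453). The thresholded summit lay 301 bp upstream of eri-5, a gene for a Tudor domain protein on the same strand, which begins 561 bp past the end of trap-3. By the nearest summits, the order of the replicates at this peak was opposite to that at the promoter peak of the same gene. With the stronger summit of replicate 1 the replicate ranks were close, at 453 and 425, in lists of unlike length.

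The δ subunit gene, trap-4 (WBGene00013238, chrIII:11920735-11921586, forward strand), was the only gene of the set with no summit in its promoter window in any of the 4 lists. Its start faces ccf-1, a gene of the CCR4-NOT deadenylase complex, 498 bp away, and the nearest summits lay inside trap-4, 308 bp downstream in the pooled list (signal 36.8, rank 6507) and 300 bp downstream in replicate 1 (signal 26.5, rank 5674). Its thresholded peak covered chrIII:11921535-11921994, with its summit at 11921765, 179 bp past the end. The signal was 111 and the rank 415 in the pooled list. In replicate 1 the signal was 69.7 and the rank 472, and in replicate 2 they were 47.4 and 376, with summits 3 and 1 bp from the pooled summit. This summit lay 73 bp downstream of the start of Y56A3A.22, a gene for a protein with a DUF1279 domain that follows on the same strand after 105 bp. A weaker peak 412 bp past the end ranked 1793 in the pooled list, 2065 in replicate 1 and 3302 in replicate 2.

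**Figure D2:**
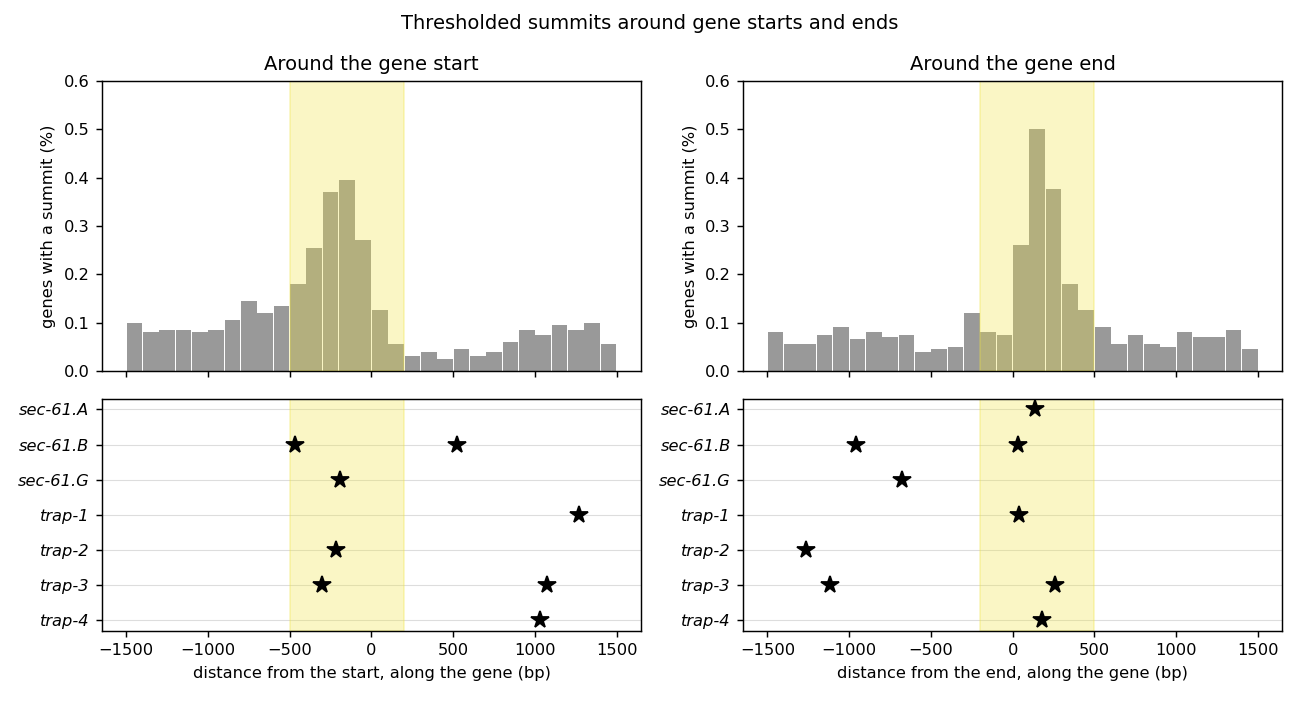
Share of all nuclear protein-coding genes with a thresholded summit in bins of distance (upper panels, percent of genes) and the thresholded summits of the 7 genes (stars, lower panels) around the gene start (left) and the gene end (right), in bp along the gene. The yellow bands are the promoter window and the end window, which was defined after the peaks had been seen. Every gene of the set has a star in at least 1 of the bands.

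The positions were set beside those of other genes. Over the 327 genes with a thresholded promoter summit, the median position of the strongest was -193 bp, counted from the start (interquartile range -303.5 to -91.5), and the 4 genes here had -193, -219, -304 and -466 bp. The summit of sec-61.B was thus farther out than that range. In a narrower promoter window, 200 bp upstream to 100 bp downstream, only sec-61.G of the 4 had its thresholded summit. Over the 306 genes with a thresholded end summit, the median was 166.5 bp past the end (96.5 to 267.25), and the 5 genes here had 32, 38, 139, 179 and 261 bp. Of these 306 genes 105 (34.3%) had such a summit in the promoter window of another gene, as 3 of the 5 here did, at trap-1, trap-3 and trap-4. Leaving out end summits that also lay in a promoter window kept sec-61.A and sec-61.B, 2 of 7 genes, beside 1.01% of all genes.

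The longer lists showed how common weak summits are. In the pooled list 6 of the 7 genes had a promoter summit, beside 26.2% of all genes, in replicate 1 there were 5, beside 26.0%, and in replicate 2 there were 6, beside 21.6%. An end summit was held by 7 of 7 in the pooled list, beside 32.7%, by 7 in replicate 1, beside 32.1%, and by 5 in replicate 2, beside 27.1%. Replicate 1 lacked a promoter summit of sec-61.A and trap-4, and replicate 2 lacked that of trap-4 and the end summits of sec-61.G and trap-2. Among the thresholded peaks of the 7 genes, the closest to the threshold was that past the end of sec-61.B (signal 91.0), followed by that of trap-2 (91.6). The strongest peaks around these genes that fell below it were the further summit past the end of trap-4 (61.7), the peak 204 bp into sec-61.A (56.9) and a peak inside sec-61.B (rank 3262).

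**Figure D3:**
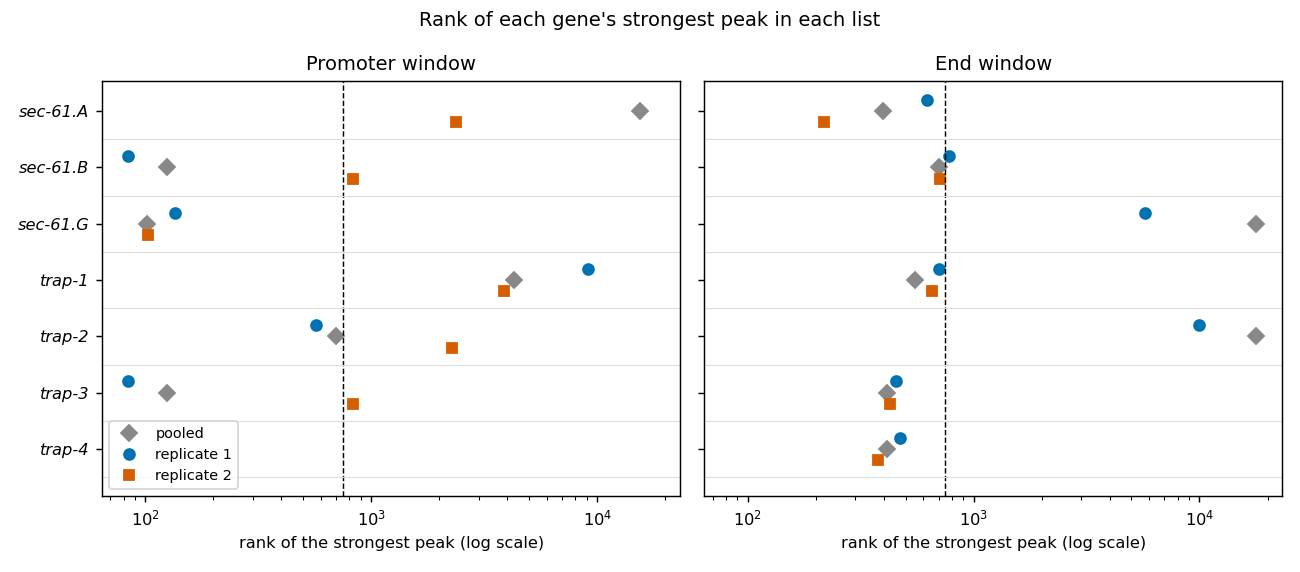
Rank of the strongest peak of each gene in the promoter window (left) and the end window (right), on a log axis, in the pooled list (diamonds), replicate 1 (circles) and replicate 2 (squares), with a dashed line at rank 750. In the promoter window only sec-61.G has both replicates left of the line, and in the end window sec-61.A, trap-1, trap-3 and trap-4 do.

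At the promoters the larger replicate rank was 9.87 times the smaller at the shared summit, 4.02 times at trap-2 and 1.31 times at sec-61.G. At the 5 end summits this ratio ran from 1.08 at trap-1 to 2.86 at sec-61.A, so the widest gaps between the replicates were at 2 of the 3 promoter summits. Among the 750 strongest peaks of replicate 1 were promoter summits of the same 4 genes, sec-61.B, sec-61.G, trap-2 and trap-3, beside 1.60% of all genes. Among the 750 strongest of replicate 2 only that of sec-61.G remained, beside 1.40%. At the ends, the 750 strongest of replicate 1 held summits of sec-61.A, trap-1, trap-3 and trap-4, beside 1.48%, and those of replicate 2 held the same 4 and sec-61.B, beside 1.62%. With 2 replicates of 1 group this difference between starts and ends was not tested. In the pooled list the end peaks ranked 399, 412, 415, 552 and 706, and the promoter summits 102, 125 and 694. In replicate 2 all 5 end peaks, with ranks from 217 to 712, were stronger than the shared promoter summit (829) and that of trap-2 (2281). The highest pooled signal among the end peaks, 112 at sec-61.A, was below the median of 114 of the thresholded list, so all 5 were in the weaker part of that list.

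**Figure D4:**
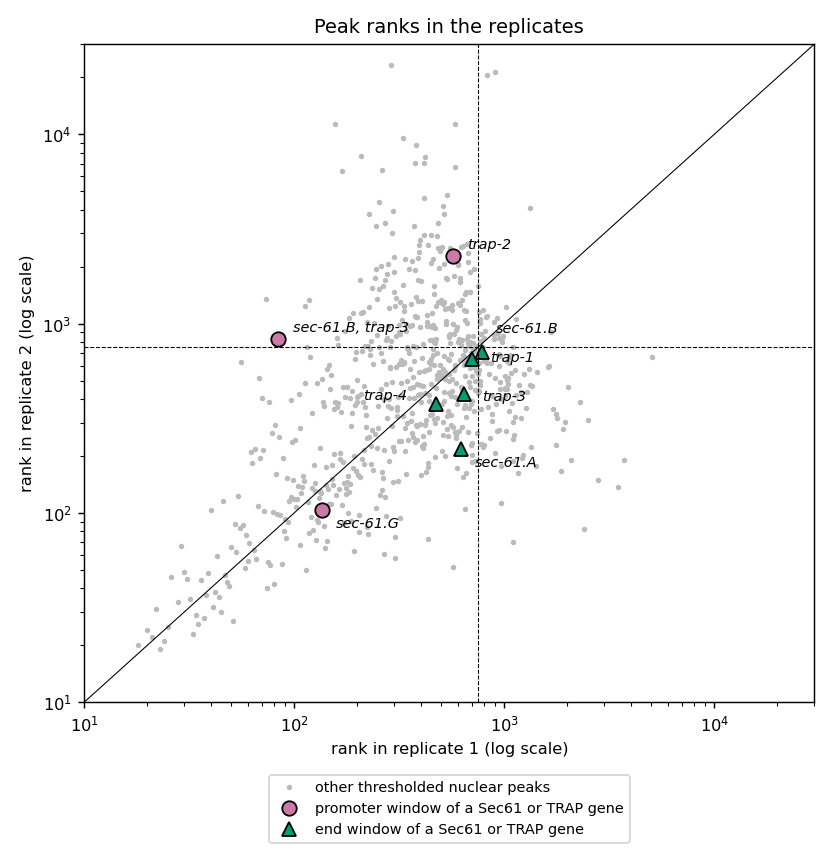
Rank of thresholded nuclear peaks in replicate 1 (horizontal) and replicate 2 (vertical), both on log axes, with the promoter summits (circles) and end summits (triangles) of the 7 genes over the other peaks (grey). The diagonal marks equal ranks and dashed lines mark rank 750, and the shared summit of sec-61.B and trap-3 (84 and 829) and that of trap-2 (568 and 2281) lie above the diagonal.

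None of the 8 summits was close to a gene of these short RNA classes. The closest tRNA, snoRNA, snRNA, rRNA or microRNA gene was the snoRNA gene Y71F9AM.7, 6119 bp from the summit past trap-1, and at trap-2 the closest was 97101 bp away.

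For each gene with a thresholded promoter summit, the 3 other genes with the nearest log10 ranks in the pooled list and both replicates were looked up among 2530 genes with a promoter summit in all 3 lists. For sec-61.G these were cox-5B, a cytochrome c oxidase subunit gene (distance 0.0989), and cux-7 and C07H6.2, which share ranks of 116, 134 and 127 (0.107). For sec-61.B and trap-3 they were R107.5 (0.229), the RNA-directed RNA polymerase gene ego-1 (0.256) and the ubiquitin ligase gene wwp-1 (0.319). All of them had a lower rank number in replicate 1 than in replicate 2, which follows from their choice by these ranks. For trap-2 they were ile-2, which has the same summit (0), C47B2.2 (0.0518) and gsa-1, which encodes a G protein α subunit (0.0565). The likeness is in peak strength over 3 lists that are not independent, since the pooled list was made from the replicates.

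The neighbouring steps of protein entry, folding and export were described with 65 other genes in 8 lists. Of these, 5 had a thresholded promoter summit, beside the 1.64% of all genes, and 36 had a pooled promoter summit, beside 26.2%. At the end, 2 had a thresholded summit, beside 1.53%, and 50 a pooled one, beside 32.7%. The genes upstream of the channel, for the signal recognition particle and its receptor, had no thresholded summit at either end among 8 genes. This is near the share of all genes, 3.05%. Their strongest pooled promoter peak was that of F37F2.2 (signal 78.1, rank 1002). Of 10 other translocation and insertion genes none had a thresholded promoter summit, and perm-3 (77.0, rank 1047), for a subunit of the ER membrane complex, and dnj-29 (57.1, rank 2140), the gene of the SEC63 partner of the channel, were the strongest in the pooled list. The end of dnj-29, however, had a thresholded summit, 95 bp before the end of the gene (signal 98.2, rank 586), with ranks of 1102 in replicate 1 and 246 in replicate 2.

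Enzymes that act on the entering chain come next. Among 4 signal peptidase genes, spcs-2 had a thresholded promoter summit 149 bp upstream (signal 88.8, rank 743) in the window it shares with mrg-1, with ranks of 2507 and 310 in replicates 1 and 2. Among 6 oligosaccharyltransferase genes, which attach the sugar chain, ostb-1 had a thresholded summit 75 bp before its end (signal 90.0, rank 726). The strongest summits in its end window ranked 1761 in replicate 1 and 334 in replicate 2. The strongest pooled promoter peak of the 6 genes was that of dad-1 (75.3, rank 1105). The 15 ER chaperone and folding genes included 2 with a thresholded promoter summit. These were hsp-3, a BiP-type chaperone (signal 154, rank 170, 6 bp upstream), and the protein disulfide isomerase pdi-6 (99.5, rank 566, 3 bp upstream), and enpl-1 (76.0, rank 1082) and pdi-2 (74.3, rank 1147) were next in the pooled list. Of 4 unfolded protein response genes xbp-1 passed (89.8, rank 728, 49 bp upstream), with ranks of 379 in replicate 1 and 8814 in replicate 2, while atf-6 (74.5, rank 1142) and pek-1 (45.0, rank 3898) did not.

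In the later steps, the 10 genes of ER-associated degradation included cdc-48.1, which encodes the AAA ATPase that extracts proteins from the ER membrane and had the strongest peak of all these lists (signal 317, rank 32, 155 bp upstream), and ufd-1 (35.0) and cdc-48.2 (29.8) were next in the pooled list. None of the 8 genes of the COPII coat, which carries cargo out of the ER, had a thresholded summit at either end, and sar-1 (66.1, rank 1519) and sec-12 (65.4, rank 1551) were the highest in the pooled list. In the pooled list only cdc-48.1 of the 65 genes had a promoter peak stronger than those of sec-61.G and of the sec-61.B and trap-3 pair. In replicate 2 the pair, at rank 829, also stood behind hsp-3 (rank 172), spcs-2 (310) and pdi-6 (477).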

How the data were processed

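ChIP-seq peak lists of ZNF-207 in 2 biological replicates, grouped and numbered by the labels, were used as deposited in ce11. The authors deposited a signal for each peak (column 7), a −log10 q-value (column 9) and the offset of its summit (column 10). Per the file that describes the deposited lists, the replicate and pooled lists hold both peaks and background and were the input of a test of irreproducible discovery (IDR), and the thresholded list is its optimal set. Neither the aligner nor the peak caller is given in the sources used here. The −log10 q-value was 2.47 in all 750 thresholded peaks and ranked none of them. The lists hold no read counts, so neither depth nor counting error can be given. A possible control is named in the labels and was not used here.

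Summits were placed against 19973 nuclear protein-coding genes of the WBcel235 annotation with Python 3.11.15, pandas 2.3.3 and numpy 2.4.6, and window assignment was tested on simulated summits. Summits in windows of neighbouring genes count for each. Replicate summits were matched to the nearest within 200 bp. Motifs were searched on both strands. The 7 genes, the pathway lists and the motifs were chosen with earlier results of these data known, and the end window and GTTCGA were added later. Genes named are the 7, genes whose promoter window holds their summits, pathway genes with a thresholded promoter summit and up to 2 more of each list by pooled signal, the 3 genes with the nearest ranks, and the nearest gene to each summit. The neighbouring genes at the ends, and dnj-29 and ostb-1 at their ends, were named after their values were seen. A further gene that this rule names is not reported here. No p-value was computed.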

Additional observations from a re-analysis of the deposited data

How the results depend on the processing

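No paired analysis was possible because there is 1 group of 2 replicates and no second group to pair it with. With a promoter window of 200 bp upstream to 100 bp downstream, the genes of the set with a summit fell from 4 to 1 in the thresholded list, from 6 to 3 in the pooled list, from 5 to 1 in replicate 1 and from 6 to 3 in replicate 2, since several summits lie farther upstream. Leaving out 1 replicate gave 1 to 4 genes with a promoter summit and 4 to 5 with an end summit, and the 1 promoter left without replicate 1 was that of sec-61.G. When only thresholded peaks above the median signal were counted, 0 of the 5 end summits remained. Of the 65 pathway genes, the 5 with a thresholded promoter summit became 2 with those peaks and 3 to 4 when 1 replicate was left out, and the 2 with an end summit became 0 and 1 to 4. Without GTTCGA, the 3 motif matches became 1 within 25 bases of the summits and 10 within 100 bases. The other 32 settings for these counts stayed within 1.5 times the reported count. Among them, counting a summit only for the gene with the nearest start removed sec-61.B from the promoter count of each list. In the thresholded list the count went from 4 to 3, since the shared summit is nearer to trap-3. Ranking by −log10 q-value ties the thresholded summits at rank 1. Unknown depth, 2 replicates and the absence of an analysed control limit every value.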
